A study of Rattus norvegicus with 14 samples.

Results

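The expression of 10 antioxidant defence genes was read in 2 tables from rat hippocampal cultures. They were chosen by symbol, as a fixed list of 10: Nfe2l2, Hmox1, Nqo1, Gclc, Gclm, Sod1, Sod2, Cat, Gpx1 and Gpx4. All 10 were listed among the 18239 genes of the neuron table and the 31791 genes of the astrocyte table, and all 10 passed the minimum for testing, a mean of 10 normalized counts, with 15314 and 15380 genes in all. The cultures came from embryonic day 18 Sprague Dawley fetuses and every group was kept in supplement-reduced Aging Model (AM) medium. The 4 AM-Veh and 4 AM-Allo neuron libraries came from cultures moved to this medium on day 10 for 4 h and then given vehicle (0.001% ethanol) or 100 nM allopregnanolone (Allo), a neurosteroid, for 16 h. The 3 AM-Veh and 3 AM-Allo astrocyte libraries came from glia enriched for astrocytes by shaking and replating, held 24 h in medium with charcoal-stripped serum and then treated for 24 h at the same dose. No library from full medium was analysed here, so the level of these genes outside AM medium is not given.

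Cells meet superoxide and hydrogen peroxide as by-products of respiration and of oxidase enzymes. Superoxide dismutases turn superoxide into hydrogen peroxide, and catalase, glutathione peroxidases and peroxiredoxins remove the peroxide, the peroxidases at the expense of glutathione and thioredoxin that NADPH keeps reduced. The transcription factor NRF2, encoded by Nfe2l2, is held down by KEAP1 and, once released, raises transcription of enzymes for glutathione synthesis, quinone reduction and heme breakdown. In the brain, astrocytes are known for a stronger NRF2 response than neurons and for passing glutathione precursors to them.

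The neuron libraries carry a replicate number in 2 parts (1-1, 1-2, 2-1 and 2-2 in each treatment). The labels do not say what the first part marks, and libraries that share it may come from 1 culture, so p-values here measure the spread between these libraries only. The libraries held about 19500000 to 28100000 reads on genes, as estimated from the value of 1 read, and no pair was within sampling noise of another. The labelled cell types were checked with markers summed per library, in tables that were normalized apart. Neuron markers came to 40494 to 48130 normalized counts in neuron cultures and 5434 to 6197 in astrocyte cultures. Astrocyte markers came to 191365 to 252263 in neuron cultures and 225237 to 239610 in astrocyte cultures. The neuron cultures thus held glial RNA, with an astrocyte marker sum whose range spanned that of the astrocyte cultures. By AM-Veh means, Slc1a3, Slc1a2, S100b, Gja1 and Aldh1l1 were higher in the neuron cultures, and Gfap, Aqp4 and Sox9 in the astrocyte cultures. The neuron marker Gad1 was higher in the astrocyte cultures (1803, against 1254), so these markers separated the 2 culture types only in part. Oligodendrocyte lineage markers were also present in the neuron cultures (52475 to 60483, against 6534 to 6994). The mesenchymal marker sum was higher in the astrocyte cultures (56593 to 67855, against 226 to 2206), carried by Col1a1, Col1a2 and Col3a1. Dcn and Lum went the other way, with AM-Veh means of 183 and 11.9 in neuron and 5.86 and 8.11 in astrocyte cultures. Microglial markers summed to 108 to 183 in neuron and 1147 to 1493 in astrocyte cultures, with Cx3cr1 and Aif1 under 5 in every neuron library. In such bulk RNA, fewer cells of a type and less RNA per cell cannot be told apart.

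The promoter window of a gene, 250 bases before to 50 bases after its start, was available from RefSeq (build GRCr8) for 9 of the 10 genes and not for Hmox1. The windows were searched on both strands for TGACNNNGC, the core of the antioxidant response element that NRF2 binds with a small MAF partner, which shares its first letters with the AP-1 motif. It was found in 3 of the 9 genes (Gclm, Sod2 and Nfe2l2), and in 12.1% of all 33469 windows of the same length. The windows of Gclm, Nqo1 and Sod2 are printed because, in the neuron cultures described next, Gclm and Nqo1 varied widely and Sod2 hardly at all. Capitals mark the match, which runs on the other strand in both genes that have one and reads TGACTAAGC in Gclm and TGACCCTGC in Sod2. The Gclm window is chr2:213031885-213032184 (plus strand), with the match beginning 172 bases before the start. The Nqo1 window is chr19:52220218-52220517 (minus strand) and holds no match. Bases outside the windows were not searched, so a gene without a match here may have the element elsewhere. The Sod2 window is chr1:50050119-50050418 (minus strand), with the match beginning 35 bases before the start.
Gclm: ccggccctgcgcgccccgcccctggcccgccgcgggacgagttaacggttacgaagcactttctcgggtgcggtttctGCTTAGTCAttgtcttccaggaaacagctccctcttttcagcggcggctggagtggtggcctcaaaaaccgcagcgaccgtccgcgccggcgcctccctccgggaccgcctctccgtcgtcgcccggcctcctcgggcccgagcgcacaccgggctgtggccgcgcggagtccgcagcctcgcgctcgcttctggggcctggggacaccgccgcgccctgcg
Nqo1: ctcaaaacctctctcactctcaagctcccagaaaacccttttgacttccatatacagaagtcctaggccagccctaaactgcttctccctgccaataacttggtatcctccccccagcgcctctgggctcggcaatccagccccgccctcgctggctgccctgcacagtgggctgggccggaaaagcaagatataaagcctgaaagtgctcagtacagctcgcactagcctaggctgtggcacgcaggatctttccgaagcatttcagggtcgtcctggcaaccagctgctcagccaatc
Sod2: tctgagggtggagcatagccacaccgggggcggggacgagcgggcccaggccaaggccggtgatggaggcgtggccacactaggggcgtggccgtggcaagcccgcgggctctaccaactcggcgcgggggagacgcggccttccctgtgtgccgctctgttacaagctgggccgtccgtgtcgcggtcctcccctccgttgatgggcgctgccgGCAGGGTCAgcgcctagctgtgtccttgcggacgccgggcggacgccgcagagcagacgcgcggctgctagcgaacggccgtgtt

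In neuron cultures, the levels of most of these genes followed the first part of the replicate number and not the treatment. Values below are normalized counts, read counts that the authors scaled for library size, given for AM-Veh 1-1, 1-2, 2-1 and 2-2 and then for AM-Allo in the same order. Hmox1, which encodes the inducible heme oxygenase that opens heme to biliverdin, carbon monoxide and iron, stood at 7260.0, 7740.5, 16804 and 19351 in AM-Veh and at 7241, 7230.5, 16876 and 16707 in AM-Allo. All 4 libraries with first number 2 were above all 4 with first number 1, in both treatments. Nqo1, a quinone reductase that uses NADPH, stood at 7051, 7569, 13176 and 14782 in AM-Veh and at 6931, 6931, 12409 and 13413 in AM-Allo. Gclm, the modifier subunit of glutamate-cysteine ligase, was at 760.4, 832, 1439.9 and 1494 in AM-Veh and at 809.5, 789, 1461 and 1257 in AM-Allo. Both genes showed the same gap, with no library of first number 2 reaching down to first number 1. Gclc, the catalytic subunit of the same ligase, which makes the rate-limiting step of glutathione synthesis, was at 6592, 6874, 7808 and 7781 in AM-Veh and at 6733, 6759, 7533 and 7399 in AM-Allo. Its gap was in the same direction as that of Gclm but much narrower.

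Nfe2l2 itself was at 2492, 2742, 3162 and 3448 in AM-Veh and at 2572, 2709, 3058 and 3297 in AM-Allo. Of the peroxide-removing enzymes, Cat, the catalase of peroxisomes, was at 4885, 5075, 5633 and 6139.8 in AM-Veh and at 4949.9, 4985, 5765 and 6105 in AM-Allo. In both genes the libraries with first number 2 were again the higher ones. Gpx1, the main cytosolic glutathione peroxidase, was at 2934, 3113, 3844 and 4195 in AM-Veh and at 2900.4, 3051, 3845 and 3849.8 in AM-Allo. Gpx4, which reduces lipid peroxides in membranes and holds off ferroptosis, was at 5108, 5292, 5952 and 6153 in AM-Veh and at 4990.3, 5039, 5917 and 6027 in AM-Allo. Neither had a library of first number 1 inside the range of first number 2.

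The superoxide dismutases varied least. Sod1, the cytosolic copper and zinc enzyme, was at 3150.1, 3199, 3252 and 3360.0 in AM-Veh and at 3142, 3089, 3279.8 and 3401 in AM-Allo. Sod2, the manganese enzyme of the mitochondrial matrix, was at 2148, 2157, 2210.1 and 2234 in AM-Veh and at 2239, 2202, 2021 and 2159 in AM-Allo. Sod1 libraries of first number 2 were above those of first number 1 by a small margin, whereas the Sod2 ranges overlapped.

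**Figure D1:**
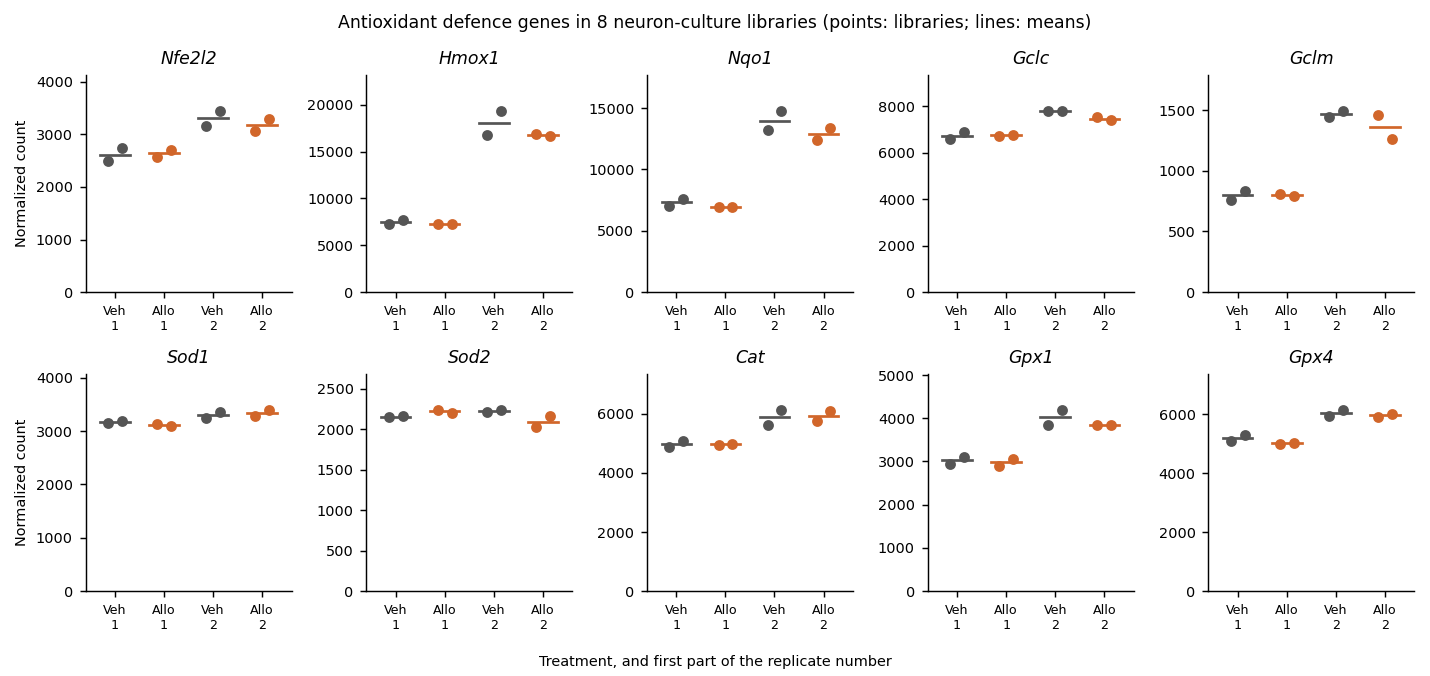
Normalized counts (vertical axes, each from 0) of the 10 genes in 8 neuron libraries, by treatment and first part of the replicate number on the horizontal axis, with points for libraries and lines for the mean of each pair. Hmox1, Nqo1 and Gclm sit in a low tier for first number 1 and a high tier for first number 2 under both treatments, while Sod2 stays between 2021 and 2239.

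The difference between first numbers was tested with limma on log2(normalized count + 1), with treatment as a term, over 4 libraries against 4. Of the 10 genes, 8 rose from first number 1 to 2 at an adjusted p under 0.05, and none fell, in a table where 17.2% of genes were called, 9.61% higher and 7.61% lower. In 9 of the 10 the libraries of first number 2 all lay above those of first number 1, which held for 10.2% of the genes tested. The exact two-sided permutation test gave p = 0.0286 for each of these 9, and 4 libraries against 4 can give no smaller value. The 10 log2 differences had a median of 0.27, beside -0.0026 over all genes tested, for which the 5th and 95th percentiles were -0.32 and 0.41.

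Hmox1 led the list. It rose from 7368 ± 249 to 17435 ± 1279.5 normalized counts (SD, n = 4 and 4), a log2 difference of 1.24 (95% interval 1.16 to 1.32; adjusted p = 1.36e-11 by limma), which ranked 3 by p and 43 by size among the 15314 genes. Nqo1 rose from 7121 ± 304 to 13445 ± 989, a log2 difference of 0.91 (0.84 to 0.99; adjusted p = 5.15e-10 by limma). Gclm rose from 798 ± 30.4 to 1413 ± 106, by 0.82 on the log2 scale (0.71 to 0.93; adjusted p = 3.35e-08 by limma). The rise was present under each treatment taken alone, at 2.41-fold in AM-Veh and 2.32-fold in AM-Allo for Hmox1, 1.91-fold and 1.86-fold for Nqo1, and 1.84-fold and 1.69-fold for Gclm.

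The other 5 called genes rose by smaller amounts. Gpx1 rose by 0.39 on the log2 scale (2999.5 to 3933 normalized counts, adjusted p = 9.14e-07 by limma), Nfe2l2 by 0.30 (2629 to 3241, 8.49e-05), Cat by 0.25 (4974 to 5911, 3.96e-05), Gpx4 by 0.24 (5107 to 6012, 7.80e-06) and Gclc by 0.18 (6739 to 7630.3, 0.000105). For the 2 subunits of glutamate-cysteine ligase the intervals did not meet, at 0.71 to 0.93 for the modifier Gclm and 0.13 to 0.23 for the catalytic Gclc, although the difference between the genes was not tested. Sod1 went from 3145 ± 45.1 to 3323 ± 69.2, a log2 difference of 0.08 (0.022 to 0.14) whose adjusted p of 0.0577 missed the threshold. Sod2 was at 2186 ± 42.1 and 2156 ± 95.4, a log2 difference of -0.02 (-0.095 to 0.054; adjusted p = 0.745). In the variance-stabilized values that the authors also deposited for neurons, the means over first number 1 and 2 were equal within 1e-06 for 18239 of 18239 genes. Those values thus hold no first-number difference for any gene, as after removal of a first-number term, a step that the authors' methods do not name. They cannot show whether this gap is present, and it was read in the normalized counts only.

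**Figure D2:**
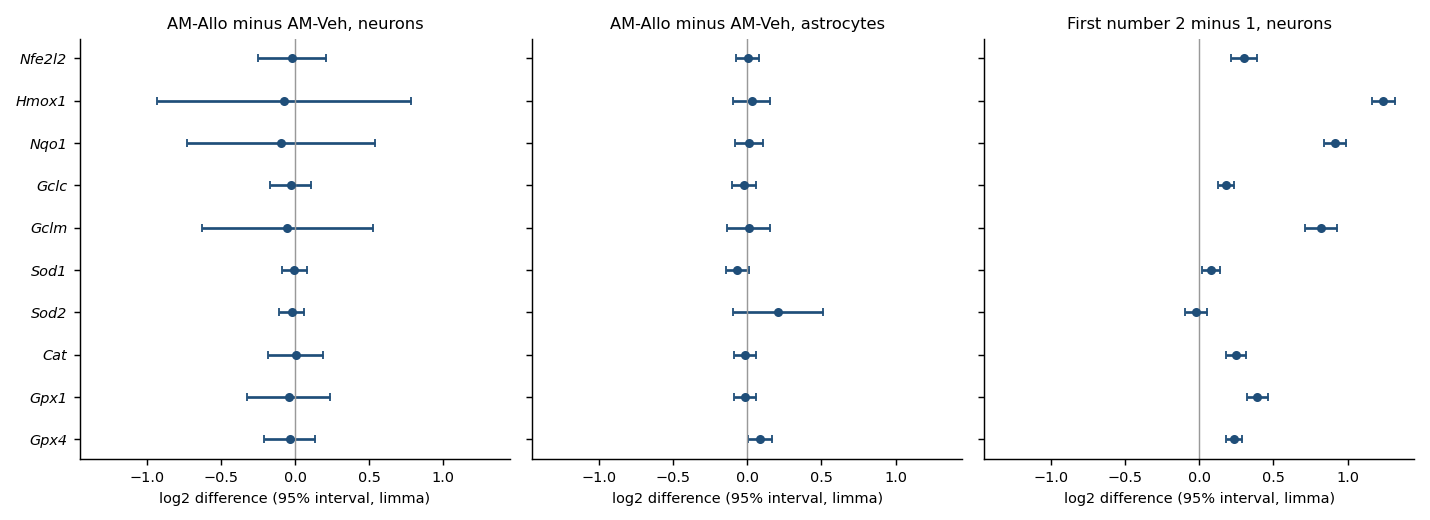
Log2 differences of the 10 genes with 95% intervals from limma, for AM-Allo minus AM-Veh in neurons, the same in astrocytes, and first number 2 minus 1 in neurons. Intervals for Allo cross 0 except that of Gpx4 in astrocytes, while in the last panel 9 of 10 lie above 0 and that of Sod2 spans it.

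Other redox genes, in 5 lists, were read in the same comparison, where 9.61% of all genes tested were called higher and 7.61% lower. Over the 5 lists, 31 of 60 tested genes were called higher and 3 lower. Among 10 NRF2 pathway regulators 3 rose and none fell at an adjusted p under 0.05. Sqstm1, the autophagy adaptor p62 that sequesters KEAP1, rose from 17359.9 ± 664 to 29090.3 ± 1600.4 normalized counts (log2 0.74, adjusted p = 4.53e-09 by limma). Mafg, a small MAF partner of NRF2, rose by 0.29 on the log2 scale (adjusted p = 0.00126) and Nfe2l1, a relative of Nfe2l2, by 0.21 (0.000307). The repressors Bach1 and Bach2 had log2 differences of 0.15 and -0.20 with adjusted p of 0.102 and 0.126, and Keap1 was at 1451 and 1473 (log2 0.02, adjusted p = 0.697).

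Of 17 tested genes for glutathione and NADPH supply 10 rose and 2 fell. Slc7a11, the cystine carrier that feeds glutathione synthesis, rose from 2275 ± 138 to 10812 ± 1329.9, a log2 difference of 2.24 (2.10 to 2.39; adjusted p = 1.66e-11 by limma). Its partner chain Slc3a2 rose by 0.53 on the log2 scale, the glutathione transferase Gstp1 by 0.66, and Gss, which completes glutathione, by 0.71. Gsta4 and Glrx were the 2 lower genes, with log2 differences of -0.48 and -0.17. Of 12 thioredoxin and peroxiredoxin genes 8 rose and none fell, led by the thioredoxin reductase Txnrd1 (5664 to 7988, log2 0.50), with Prdx6 at 0.27, Prdx1 at 0.26 and Txn1 at 0.23.

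Of 12 genes for heme, iron and metals 8 rose and 1 fell. The ferritin subunits Fth1 and Ftl1, which store iron of the kind that heme oxygenase frees, rose from 45497 to 79880.3 and from 14025 to 19048 (log2 0.81 and 0.44). The metallothioneins Mt1 and Mt2A rose by 1.15 and 0.58 on the log2 scale, and the transferrin receptor Tfrc, which brings iron in, fell by 0.18. Ferritin and peroxiredoxin genes have near-identical processed copies, and how reads were shared with them was not checked here. Of 9 tested genes for superoxide and peroxide production 2 rose and none fell, a share not far from the 17.2% of all genes called. The 2 were Aox1 (log2 0.70) and the oxidase subunit Cyba (0.77), while Maob had a log2 difference of -0.22 with an adjusted p of 0.166 by limma. Each list also had members at a log2 difference near 0 that did not pass the test, such as Cul3 at -0.02, Prdx2 at -0.05, Idh1 at 0.00037, Hmox2 at -0.02 and Maoa at 0.01.

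**Figure D3:**
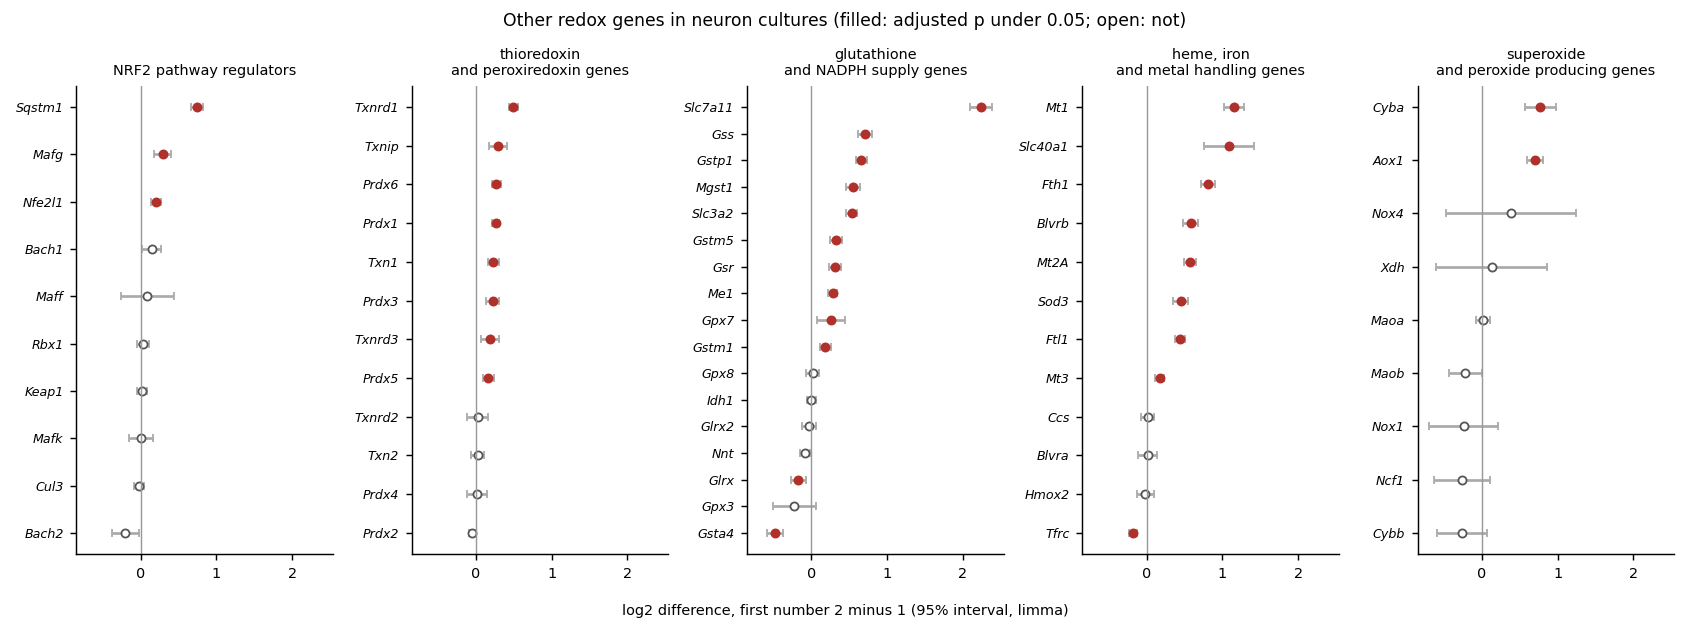
Log2 difference of first number 2 minus 1 in neurons (horizontal axis, with 95% intervals) for genes of 5 redox lists, with filled points for an adjusted p under 0.05 and open points for the rest. Calls lie mostly to the right of 0, up to 2.24 for Slc7a11, with Gsta4, Glrx and Tfrc the filled points to the left.

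Markers of cell types differed between the first numbers as well. The astrocyte marker sum was 191365 to 203366 with first number 1 and 229699 to 252263 with first number 2, with 4 of 8 markers higher and 1 lower, among them Gfap (73158 to 112247, log2 0.62, adjusted p = 3.25e-08 by limma). The neuron marker sum overlapped, at 42112 to 45155 and 40494 to 48130, with 1 of 7 markers higher. Microglial markers summed to 108 to 124 and 167 to 183, with 1 of 3 tested markers higher. That marker was Cd68 (72.5 to 131, adjusted p = 0.000103 by limma). Of those under the minimum for testing, Csf1r (9.60 to 2.77), Aif1 and P2ry12 were lower with first number 2 and Cx3cr1 was higher. Mesenchymal markers were lower with first number 2 (646 to 2206 against 226 to 348, with 4 of 5 lower), as were proliferation markers (4690.7 to 5280.5 against 3896 to 4179, with 4 of 5 lower). Oligodendrocyte lineage markers were at 56441 to 60483 and 52475 to 54436, with 5 of 9 lower and 1 higher. Their part in the rise of the antioxidant genes was not tested. The genes whose neuron pattern was most like that of Hmox1 were the metallothionein Mt1, the granin Scg2 and the tetraspanin Cd9, with root mean square log2 differences of 0.0913, 0.0918 and 0.0920 from Hmox1 over 8 libraries after each gene's mean was removed.

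For Allo against vehicle in neurons, no antioxidant gene passed the test. At an unadjusted p under 0.05 the count was 0 of 10, in a table where 5.69% of genes passed, and it was 0 of 10 after adjustment, the smallest adjusted p being 0.998. The exact permutation test gave p between 0.543 and 0.971, and for none of the 10 were the AM-Veh and AM-Allo libraries apart, beside 3.95% of all genes tested. For 9 of the 10 the overlap was fixed in advance, since each treatment held both first numbers and those did not overlap. The overlap and the permutation test therefore cannot show whether Allo changed these 9 genes. The log2 differences ran from -0.095 for Nqo1 to 0.0046 for Cat, 9 of 10 below 0, with a median of -0.033 beside -0.0015 over all genes tested. Hmox1 averaged 12789 ± 6198 in AM-Veh and 12013 ± 5518 in AM-Allo (SD, n = 4 and 4), and since both groups hold both first numbers its interval was wide, from -0.93 to 0.78 on the log2 scale. The interval for Nqo1 ran from -0.73 to 0.54 and that for Gclm from -0.63 to 0.52, so a change of less than about these sizes could not be seen in this fit. For Sod1 it was -0.090 to 0.078 and for Sod2 -0.11 to 0.062, which leaves less room for a change.

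The fit was also run with a block, since neuron libraries with the same first number were alike. The labels do not say that libraries with the same whole number are paired, and the values do not settle whether they are. With a block by first number, which sets AM-Allo beside AM-Veh of the same first number, Nqo1 alone of the 10 had an unadjusted p under 0.05 (log2 -0.095, unadjusted p = 0.0197, adjusted p = 0.337 by limma), with 11% of all genes passing. With the whole number as a block Nqo1 (unadjusted p = 0.00252, adjusted p = 0.157 by limma) and Hmox1 (log2 -0.077, unadjusted p = 0.0354, adjusted p = 0.423 by limma) did, with 10.7% of all genes passing. Nqo1 and Gpx4 were lower in AM-Allo than in AM-Veh of the same number in each of the 4 pairs, as were 9.26% of all genes tested, and Nfe2l2, Hmox1, Gclc and Gpx1 were lower in 3 of 4. Taken by first number, the log2 difference of Nqo1 was -0.08 for first number 1 and -0.11 for first number 2, and that of Hmox1 was -0.05 and -0.10. A test of whether the Allo difference itself changed with the first number gave an unadjusted p under 0.05 for Sod2 alone (0.04 for first number 1 and -0.09 for first number 2, unadjusted p = 0.0417, adjusted p = 0.499 by limma), with 9.53% of all genes passing. None of the tested genes in the 5 redox lists had an unadjusted p under 0.05 for Allo in neurons without a block, and the gene with the most counts in each list had a log2 difference of -0.02 (Sqstm1), -0.03 (Prdx1), 0.02 (Gstp1), 0.01 (Fth1) and -0.12 (Aox1).

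In astrocyte cultures most of the 10 genes varied little between the 6 libraries, with Sod2 the exception. Values are given for AM-Veh 1 to 3 and then AM-Allo 1 to 3. Gpx4 was at 4859.6, 4866 and 4801 in AM-Veh and at 4952, 5397 and 5102 in AM-Allo. All AM-Allo libraries were above all AM-Veh libraries, a log2 difference of 0.09 (0.0064 to 0.17; unadjusted p = 0.0365, adjusted p = 0.686 by limma). It was the 1 gene of 10 with an unadjusted p under 0.05, in a table where 7.01% of genes passed, and 0 of 10 passed after adjustment. Leaving out AM-Allo 2 brought the difference to 0.05 (unadjusted p = 0.158), and leaving out any 1 of the AM-Veh libraries raised p above 0.05. Sod1 was at 4385, 4679.7 and 4467 in AM-Veh and at 4348, 4382 and 4202 in AM-Allo. Here all AM-Allo libraries were the lower ones (log2 -0.07, interval -0.15 to 0.015; unadjusted p = 0.104, adjusted p = 0.781 by limma), and without AM-Veh 2 the difference was -0.04 (unadjusted p = 0.377). For both genes the exact permutation p was 0.1, and 3 libraries against 3 can give no smaller value. Groups that did not overlap were found in 12.5% of all genes tested.

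Sod2 was at 4316, 5214 and 4244 in AM-Veh and at 4006, 5302 and 6938 in AM-Allo. The AM-Allo libraries spread on both sides of the AM-Veh ones, and the log2 difference of 0.21 had an interval from -0.095 to 0.51 (unadjusted p = 0.162, adjusted p = 0.816 by limma). Without AM-Allo 1 the difference was 0.41 (unadjusted p = 0.00120, adjusted p = 0.125), and without AM-Allo 3 it was 0.01 (unadjusted p = 0.907). Hmox1 was at 1168, 1156 and 1182 in AM-Veh and at 1291, 1095 and 1202 in AM-Allo. Nqo1 was at 2535, 2516 and 2503 in AM-Veh and at 2654, 2381 and 2586 in AM-Allo. In both, the AM-Veh libraries agreed closely and the AM-Allo libraries spread around them. Nfe2l2 was at 5774, 6087 and 5926 in AM-Veh and at 5843, 5839 and 6141 in AM-Allo, with a log2 difference of 0.0027 (-0.075 to 0.081).

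Gclc was at 6437, 6441 and 6499 in AM-Veh and at 6666, 6083 and 6390.5 in AM-Allo. Gclm was at 651, 760.1 and 661 in AM-Veh and at 681, 695 and 708 in AM-Allo. Neither subunit differed by more than its spread (log2 -0.02 and 0.01, adjusted p = 0.958 and 0.988 by limma). Cat was at 3951, 3967 and 3969 in AM-Veh and at 3913, 3965 and 3884 in AM-Allo. Gpx1 was at 6616, 6945 and 6783 in AM-Veh and at 6806, 6814 and 6545 in AM-Allo. Both groups overlapped in each gene (log2 -0.02 and -0.01, adjusted p = 0.960 and 0.970 by limma). Over the 10 genes, 6 log2 differences were above 0 and 4 below, with a median of 0.0069 beside 0.0014 over all genes tested.

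**Figure D4:**
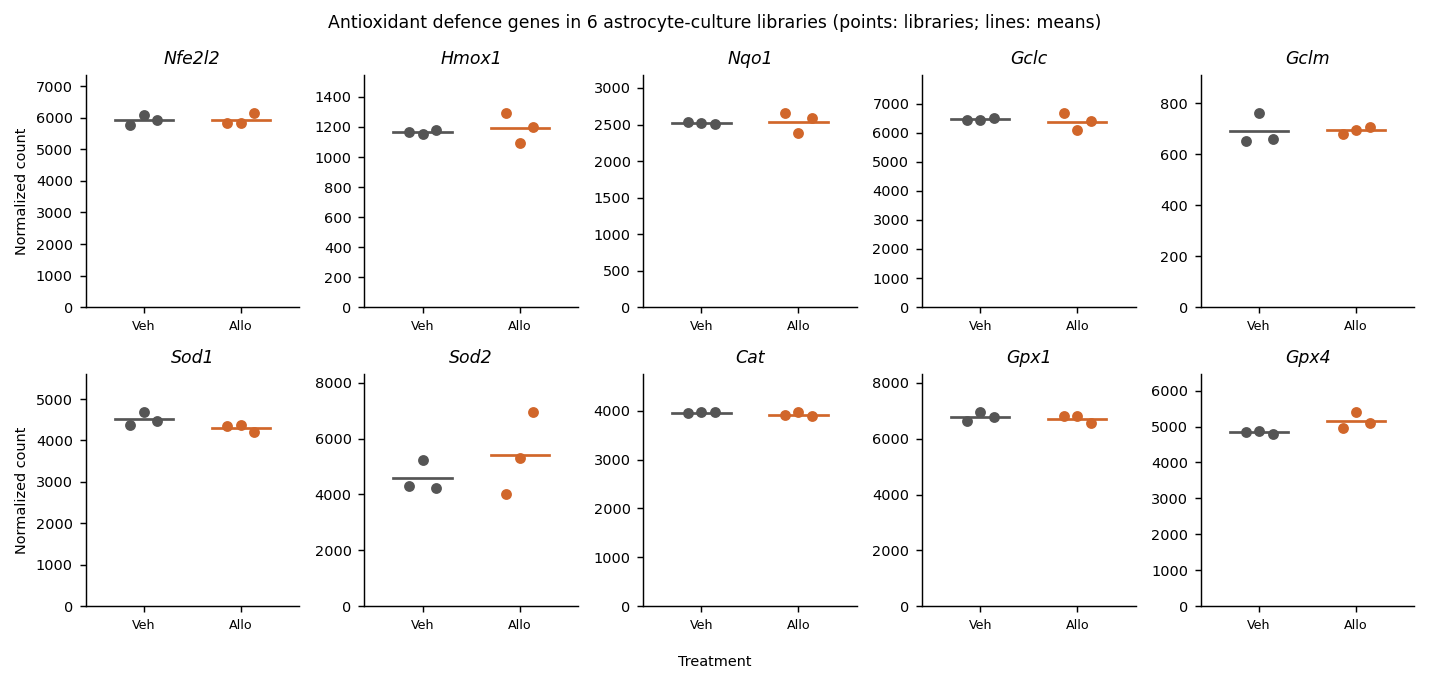
Normalized counts (vertical axes, each from 0) of the 10 genes in 6 astrocyte libraries by treatment, with points for libraries and lines for means of 3. Groups overlap for 8 genes, Gpx4 is higher and Sod1 lower in every AM-Allo library (12.5% of all genes tested did not overlap), and the AM-Allo libraries of Sod2 run from 4006 to 6938.

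Of 60 tested genes in the redox lists, none passed after adjustment for Allo in astrocytes. At an unadjusted p under 0.05 there were 6, all lower in AM-Allo. Of all genes tested, 7.01% passed in either direction and 3.29% were lower. The lower genes in AM-Allo were Rbx1, a subunit of the ligase that KEAP1 recruits (log2 -0.22, adjusted p = 0.709 by limma), the thioredoxin Txn1 (-0.14, 0.709), the glutathione transferases Gstm5 (-0.13, 0.611) and Gstm1 (-0.10, 0.709), and the monoamine oxidases Maob (-0.14, 0.473) and Maoa (-0.15, 0.520), which release hydrogen peroxide as they break down amines. No gene of the lists had an unadjusted p under 0.05 and a higher value in AM-Allo. The genes with the most counts had log2 differences of 0.04 (Sqstm1), -0.08 (Txnip), -0.01 (Slc3a2), -0.07 (Fth1) and -0.06 (Aox1), none with an unadjusted p under 0.05. The astrocyte marker sum was 226162 to 239610 in AM-Veh and 225237 to 229923 in AM-Allo, and the mesenchymal sum was 56593 to 67855 and 61382 to 64847. Of 8 astrocyte markers 7 had a log2 difference below 0, with an unadjusted p under 0.05 for Slc1a2 (-0.36, adjusted p = 0.654 by limma) and S100b (-0.09, 0.691). Of 8 microglial markers 5 were lower and 3 higher. Among these 8 only Cx3cr1 had an unadjusted p under 0.05, at 76.4 and 51.3 (log2 -0.58, adjusted p = 0.552 by limma). Their part in the differences of the redox genes was not tested. The genes most like Hmox1 over these 6 libraries were Sertad2, Snapc1 and Htr2a, with root mean square log2 differences of 0.0221, 0.0222 and 0.0237.

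Levels in neuron and astrocyte cultures were set side by side as CPM, normalized counts after each library's total was set to 1000000, without a test, since the tables were normalized apart. For each of the 10 genes the 8 neuron and 6 astrocyte libraries did not overlap, with 6 genes higher in neuron cultures and 4 higher in astrocyte cultures. The same held for 70.7% of the 14386 genes tested in both tables, 40.2% higher and 30.5% lower in neuron cultures. Hmox1 was at 575 ± 275 CPM in AM-Veh neurons and 48.9 ± 0.663 in AM-Veh astrocytes (SD, n = 4 and 3), a ratio of 11.8 that was 6.97 for first number 1 and 16.5 for first number 2. Nqo1 was at 479 ± 172 and 105 ± 0.949, a ratio of 4.54. Both inducible enzymes were thus higher in the neuron cultures even in the libraries where they were low. Gclm (51.0 ± 17.1 and 28.9 ± 2.41), Cat (245 ± 23.6 and 166 ± 0.436), Gpx4 (254 ± 20.6 and 203 ± 1.59) and Gclc (328 ± 25.3 and 271 ± 1.81) were also higher in neuron cultures, by ratios of 1.76, 1.48, 1.25 and 1.21. For first numbers 1 and 2 the ratios were 1.25 and 2.27 for Gclm, 1.36 and 1.59 for Cat, 1.17 and 1.34 for Gpx4, and 1.13 and 1.29 for Gclc.

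Nfe2l2, which encodes NRF2, went the other way. It was at 134 ± 18.2 in AM-Veh neurons and 248 ± 5.57 in AM-Veh astrocytes, 1.86 times higher in the astrocyte cultures. Gpx1 (159 ± 25.6 and 284 ± 5.76), Sod2 (98.7 ± 1.05 and 192 ± 21.9) and Sod1 (146 ± 3.05 and 189 ± 5.62) were likewise higher in astrocyte cultures, by 1.79, 1.95 and 1.29 times. The spread over libraries also differed between cultures, the coefficient of variation in AM-Veh being 48.5% for Hmox1 in neurons and 1.11% in astrocytes, and 1.90% and 11.8% for Sod2. The neuron cultures also held astrocyte and oligodendrocyte markers, so these ratios compare cultures and not purified cell types.

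**Figure D5:**
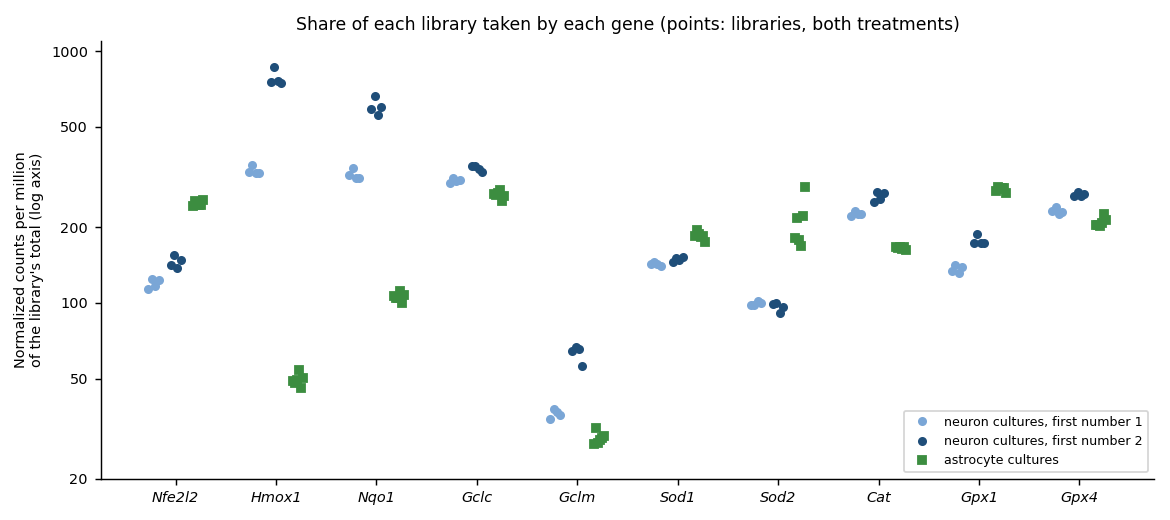
CPM of the normalized counts (vertical log axis) for the 10 genes in 8 neuron libraries, split by first number, and 6 astrocyte libraries, with 1 point per library. Neuron points lie above astrocyte points for Hmox1, Nqo1, Gclc, Gclm, Cat and Gpx4 and below them for Nfe2l2, Sod1, Sod2 and Gpx1.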

How the data were processed

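Poly(A) RNA of 14 libraries was sequenced, and the authors quantified rat transcripts (Ensembl release 95) with Salmon 0.14, summed them with tximport and scaled them with DESeq2 1.18.1. The deposited signal values are normalized counts, not whole numbers, and the deposited log2 values are the authors' variance-stabilized counts. Every column of both tables was mapped to a library by its title. No columns of fold changes or p-values were used. Genes with a mean of at least 10 were tested as log2(normalized count + 1) with limma 3.58.1 (R 4.3.3, variance trend) and Benjamini-Hochberg adjustment over all of them. Folds on this scale understate changes of low genes. Single genes also had two-sided exact permutation tests. The models were tested on simulated data.

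All 10 members were named. From each redox list the up to 4 genes with the smallest unadjusted p under 0.05 and the most abundant gene were named. Gsta4, Glrx, Tfrc, Sod3, Keap1, Bach2, the microglial markers named for the first numbers and the genes given as near 0 were added after their values were seen. Some items of the lists are not reported here and were left out of their counts. The members and lists were chosen with earlier results of these data known. Both blocked fits of the neuron libraries are given. After group means were removed, neuron libraries with the same number correlated at 0.229 to 0.296 over genes. Those with different first numbers correlated at -0.319 to -0.150. Libraries that share the first part alone correlated at 0.185 to 0.236, a range that overlaps that of the same number. Of the same-number correlations, 0.296, 0.273 and 0.265 lay above that range and 0.229 inside it. The values thus separate first numbers, and do not settle whether libraries with the same whole number are paired. Alternatives covered the pseudocount, the filter, scaling, the variance model, the replicate block and each library left out. For 71% to 95% of low values the normalized count was a whole multiple of 1 read, within 0.15 read, and the depth of each library was estimated from that value.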

Additional observations from a re-analysis of the deposited data

How the results depend on the processing

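The first-number calls held in every alternative run (8 to 9 of 10 genes, 9 with Sod1, whose adjusted p was 0.0497 with a mean of at least 50, 0.0471 with upper-quartile scaling and 0.0495 without AM-Veh 2-1), and so did the 6 genes higher in neuron cultures. No antioxidant gene reached an adjusted p under 0.05 for Allo in any alternative. At an unadjusted p, the neuron count of 0 became 1 with variance-stabilized values, 2 with the replicate block by whole number, 1 with that by first number and 1 with variance-stabilized values and the block together, an alternative chosen after seeing the data. The astrocyte count of 1 became 0 with upper-quartile scaling, 0 without the variance trend and 0 to 2 with 1 library left out. The replicate block changed no other call, and in astrocytes, where same-number correlations were -0.0070 to 0.024, it left the count at 1.

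Some small Allo differences changed sign. Cat in neurons was -0.00032 with quantile normalization. In astrocytes Nfe2l2 was -0.0114 with upper-quartile scaling and -0.0075 with quantile normalization, and with upper-quartile scaling Nqo1 was -0.0031 and Gclm -0.0025. With 1 library left out, the neuron log2 differences ranged from -0.100 to 0.056 for Nfe2l2, -0.30 to 0.17 for Hmox1, -0.27 to 0.089 for Nqo1, -0.075 to 0.0066 for Gclc, -0.22 to 0.10 for Gclm, -0.032 to 0.015 for Sod1, -0.041 to 0.0084 for Sod2, -0.052 to 0.065 for Cat, -0.12 to 0.047 for Gpx1 and -0.082 to 0.0089 for Gpx4, and leaving out a library unbalances the first numbers. In astrocytes they ranged from -0.021 to 0.022 for Nfe2l2, -0.026 to 0.092 for Hmox1, -0.021 to 0.057 for Nqo1, -0.051 to 0.015 for Gclc, -0.029 to 0.082 for Gclm and -0.030 to 0.0065 for Gpx1. The first-number difference of Sod2 ranged from -0.037 to 0.012. The cause of these changes was not tested.

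Over all genes, the neuron count at an unadjusted p of 872 became 2204 with variance-stabilized values, 1634 and 1684 with the blocks by whole and first number and 1694 with both choices. At an adjusted p the 4 became 158, 93, 104 and 105, 0 without the variance trend, and 0 to 4 with 1 library left out. The 1 astrocyte gene became 0 with a mean of at least 50 or without the trend, 4 with a robust fit, 17 with the replicate block and 1 to 72 with 1 library left out, 72 being without AM-Allo 1. The 2636 first-number calls became 1722 without the trend. The share of higher genes among those with an unadjusted p under 0.05 went from 53.1% to 39.0% with upper-quartile scaling in astrocytes, and from 52.0% to 41.2% with CPM for the first numbers. Variance-stabilized values of neurons could give no first-number difference, since their means were equal. Without a block, their Allo fit did not allow for that absent difference. Its p-values are therefore too small and its 2204 and 158 calls too many, and the fit with the block is the fairer one. As to depth, the 10 genes had at least 651 normalized counts in every library.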
